A study of Pelodiscus sinensis with 8 samples.

Results

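Gene expression in the tissue between the digits of the hindlimb was compared with that of the forelimb in embryos of the Chinese soft-shell turtle (Pelodiscus sinensis), each hindlimb web being set against the forelimb web of the same number. A gene was described as a member of the comparison when its hindlimb minus forelimb difference had the same sign in all 4 webs and it was not one of the limb identity factors TBX4, TBX5 and PITX1. Of 14386 genes with enough counts to be tested, among 19328 in the table, 2527 (17.6%) met this rule, 1222 higher in the hindlimb and 1305 lower. The rule uses the measured differences, so the shared sign is a description and carries no test.

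Tissue was taken at Tokita-Kuratani stage 19, from a staging scheme made for this turtle. Webs are numbered from the digit I side, web 1 joining digits I and II, web 2 digits II and III, web 3 digits III and IV, and web 4 digits IV and V. Every web of each limb gave 1 library, 8 in all, and each library pooled 40 pieces of tissue from the left and right sides of 20 individuals. The labels describe all samples as wild type and carry the tag "ICD" for the forelimb pools and "anti-ICD" for the hindlimb pools, without spelling the term out. No web had a second pool. The 4 webs of a limb are different positions of the same animals, so p-values measure how much the limb difference varied between positions of these pools, and variation between animals was not measured.

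Forelimbs and hindlimbs grow from similar buds and use largely the same signals, among them fibroblast growth factors, bone morphogenetic proteins (BMPs), Wnts and retinoic acid. A small set of transcription factors sets them apart: TBX5 acts in the forelimb, and PITX1 and TBX4 in the hindlimb. HOX genes and HAND2 pattern the bud from its anterior (digit I) to its posterior (digit V) side, and the mesenchyme between the digits regresses or persists depending on the species and the limb.

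Libraries held 53116512 to 65849337 counts. Levels are given as CPM, each count as a share of its library's total scaled by the trimmed mean of M-values (TMM), and differences as log2 of hindlimb over forelimb. TBX4 and TBX5 followed the labels. TBX4 stood at 0.318 to 3.28 CPM in the 4 forelimb libraries and at 129 to 159 CPM in the 4 hindlimb libraries, and TBX5 at 29.1 to 35.4 CPM and 0.433 to 0.905 CPM. PITX1 had a log2 fold change of 1.38 ± 0.175 (SE; edgeR adjusted p = 0.0139), with limbs that overlapped (14.5 to 97.2 CPM in the forelimb and 53.8 to 148 CPM in the hindlimb). Its call ended without web 2 (edgeR adjusted p = 0.0937) and under a robust prior. It also ended without web number as a block and on log2(TPM + 1) of the deposited TPM. The call of TBX4 ended under the robust prior. MSX1, a factor of limb mesenchyme, was present in every library at 235 to 546 CPM, and KRT15, a keratin of the epidermis, at 371 to 2327 CPM. In pooled tissue, fewer cells of a type and less RNA per cell cannot be told apart. The library protocol states no strand, so a gene and an overlapping antisense neighbour cannot be told apart either.

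The limb difference of one web was only weakly alike that of another. Across the 14386 tested genes the differences of 2 webs correlated at a Pearson coefficient of 0.0458 (webs 3 and 4) to 0.119 (webs 2 and 3). These are correlations across genes, which are not independent replicates. A pair of webs gave the same sign for 47.2% to 59.2% of genes. The hindlimb was higher in none, 1, 2, 3 and all of the webs in 1317, 3634, 4810, 3401 and 1224 genes, where a tie counts as not higher and TBX4 and PITX1 are included. With the identity factors included, 8.51% of tested genes (1224) were higher and 9.08% (1306) lower in all 4 webs. On log2(TPM + 1) of the deposited TPM the split was 753 higher and 1779 lower.

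Most members differed little. The median log2 fold change was 0.191 in the higher members and -0.197 in the lower members, against -0.00328 over all tested genes. In 30 higher and 45 lower members even the web with the smallest difference showed at least 1.5-fold. In 549 members the smallest difference was under 0.02 on the log2 scale, and 580 other genes missed the rule by no more than that in a single web. The limbs did not overlap at all in 211 higher and 190 lower members. Limbs without overlap must have the same sign in every web. These members are therefore all such genes outside the identity factors, and 2.8% of tested genes were without overlap. The median level was 27.9 TPM (the deposited values, which correct for gene length) in the higher members and 15 TPM in the lower members, against 15.3 TPM over all tested genes. In CPM the medians were close, 28.7 in the higher members and 27 in the lower members. The largest of the 4 differences of a higher member fell in webs 1 to 4 in 301, 381, 248 and 292 genes, and that of a lower member in 343, 322, 305 and 335 genes, so no web supplied most of them.

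With web number as a block, 24 genes passed an adjusted p of 0.05 (0.167% of tested genes; edgeR quasi-likelihood test with Benjamini-Hochberg adjustment), 13 higher (0.0904%) and 11 lower (0.0765%), and 1277 (8.88%) had an unadjusted p under 0.05. All 24 had the same sign in every web. Beyond the limb identity factors 21 remained, 11 higher and 10 lower, and 14 of these had a symbol. The transcription factors HAND2 and HOXA7, the lipid enzymes PLPP4 and MGLL and the complement component C7 were among those higher in the hindlimb. The transcription cofactor ZFPM2, the Wnt modulator SFRP2, the surface protein MSLN, the peptidase LVRN and the glycoprotein GPNMB were lower.

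**Figure D1:**
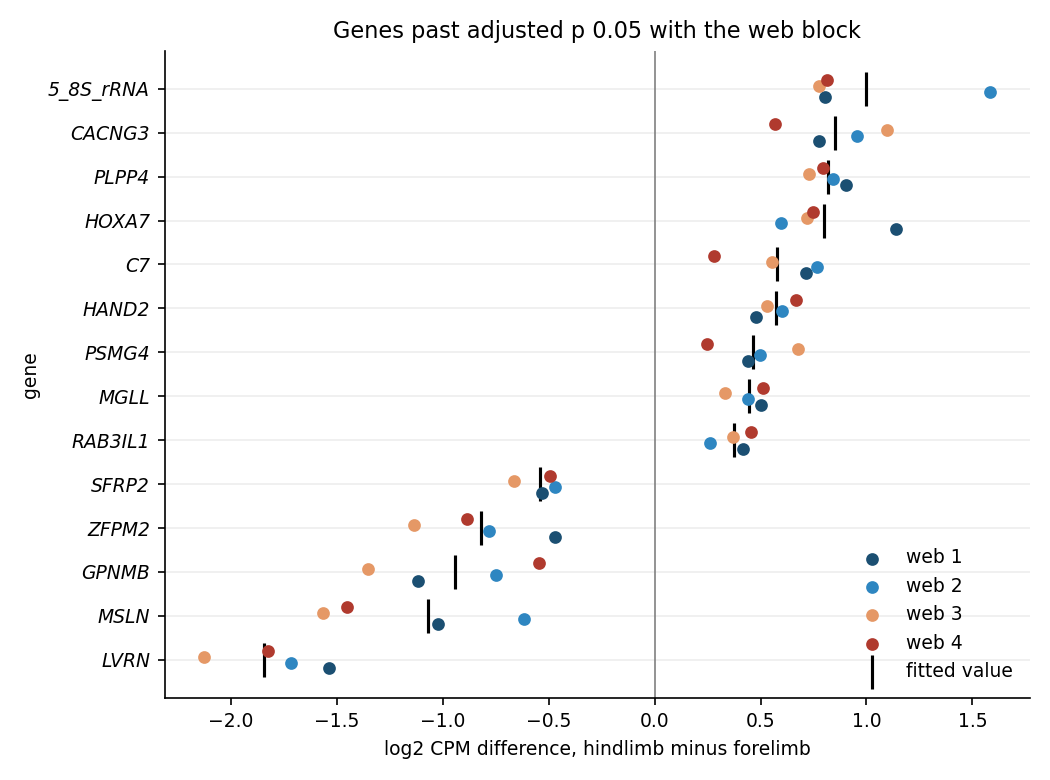
Hindlimb minus forelimb difference in log2 CPM (x axis) of the 14 genes with a symbol, other than the limb identity factors, that passed an adjusted p of 0.05 with web number as a block (y axis). Each point is 1 web and the black bar is the fitted log2 fold change; all 4 points of every gene lie on one side of 0, from LVRN at -1.84 to 5_8S_rRNA at 1.00.

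HAND2 encodes a basic helix-loop-helix factor of the posterior limb bud, where it acts upstream of the hedgehog signal in mouse and chick. Its forelimb levels were 11, 26.9, 58.7 and 69.1 CPM in webs 1 to 4, and its hindlimb levels 15.3, 40.9, 84.8 and 109.6 CPM. The level climbed with web number in both limbs, and the hindlimb was higher at each position although the limbs overlapped as groups. The log2 fold change was 0.57 ± 0.068 (SE; edgeR adjusted p = 0.0121). With 1 web left out the adjusted p ranged from 0.0153 to 0.145, and it missed 0.05 without web 2 (0.0618) and without web 3 (0.145).

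HOXA7 belongs to the middle of the HOXA cluster, whose genes give cells a position along the body. Forelimb webs 1 to 4 had 10.3, 15.5, 14.7 and 14.4 CPM, and hindlimb webs 1 to 4 had 22.7, 23.5, 24.3 and 24.2 CPM. Every hindlimb library lay above every forelimb library. Hindlimb levels were nearly even across the webs, while forelimb web 1 lay below the other forelimb webs. The log2 fold change was 0.80 ± 0.106 (edgeR adjusted p = 0.0159), and the adjusted p was 0.0528, 0.0618 and 0.165 without web 1, 2 or 3.

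ZFPM2, a zinc finger cofactor that binds GATA factors, had 11.6, 17.5, 15.4 and 11.4 CPM in forelimb webs 1 to 4 and 8.38, 10.2, 7 and 6.14 CPM in hindlimb webs 1 to 4. Forelimb and hindlimb levels did not overlap. Its log2 fold change was -0.82 ± 0.13 (edgeR adjusted p = 0.0461), the value closest to the threshold among the named genes that passed. The adjusted p was 0.266, 0.382 and 0.0518 without web 2, 3 or 4, and scaling by library size alone also ended the call. SFRP2 is a secreted protein that binds Wnts and is used as a marker of joint-forming and connective tissue cells. It went down with position, from 116 CPM through 108 and 64.9 to 25.8 CPM in the forelimb and from 80.6 CPM through 78 and 41 to 18.3 CPM in the hindlimb. The hindlimb level was below the forelimb level at each position by a similar factor. It had a log2 fold change of -0.54 ± 0.0645 (edgeR adjusted p = 0.0121), and the adjusted p was 0.0509, 0.0618 and 0.154 without web 1, 2 or 3.

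PLPP4, a phospholipid phosphatase, had the lowest p of the members with a symbol. It went up with web number, from 9.51 CPM through 13.7 and 17.4 to 18.9 CPM in the forelimb and from 17.8 CPM through 24.6 and 28.9 to 32.7 CPM in the hindlimb. The first hindlimb web was at the level of forelimb webs 3 and 4, so the limbs overlapped only through it. The log2 fold change was 0.82 ± 0.0851 (edgeR adjusted p = 0.00454), and without web 3 the adjusted p was 0.0513. MGLL encodes monoglyceride lipase, which breaks down monoacylglycerols including an endocannabinoid. Its levels were 94.6, 148, 309 and 352 CPM in forelimb webs 1 to 4 and 134, 200.4, 389 and 501 CPM in hindlimb webs 1 to 4. Position moved it more than limb did, and the hindlimb was higher at every position. The fitted log2 fold change was 0.45 ± 0.0564 (edgeR adjusted p = 0.0139), and the adjusted p was 0.0614, 0.0811 and 0.133 without web 1, 2 or 3.

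C7, a complement component of the membrane attack complex, gave 27.7, 43.3, 61.1 and 78.5 CPM across forelimb webs 1 to 4 against 45.6, 73.8, 89.7 and 95.4 CPM across hindlimb webs 1 to 4. The difference was smallest in web 4 and the limbs overlapped as groups. The fold change on the log2 scale was 0.58 ± 0.085 (edgeR adjusted p = 0.0327), and the adjusted p was 0.0935, 0.186 and 0.27 without web 1, 2 or 3. MSLN encodes mesothelin, a surface protein of mesothelial cells. It had 56, 19.4, 2.1 and 1.92 CPM in forelimb webs 1 to 4 and 27.6, 12.6, 0.685 and 0.68 CPM in hindlimb webs 1 to 4. Webs 1 and 2 held nearly all of it in both limbs. Its log2 fold change was -1.07 ± 0.158 (edgeR adjusted p = 0.0327), and the adjusted p was 0.152 without web 1 and 0.178 without web 3.

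LVRN, an aminopeptidase known in human as laeverin, was a gene of low level, with 3.01, 2.25, 3.74 and 3.22 CPM in forelimb webs 1 to 4 and 1.02, 0.66, 0.83 and 0.882 CPM in hindlimb webs 1 to 4. There was no overlap between the limbs, and its log2 fold change of -1.84 ± 0.274 (edgeR adjusted p = 0.0327) was the largest fall among the genes with a symbol that passed, TBX5 aside. Leaving out any single web ended its call, with adjusted p-values of 0.0516 to 0.291. CACNG3, an auxiliary subunit known for its action on glutamate receptors, had 18.5, 13.7, 5.11 and 5.6 CPM in forelimb webs 1 to 4 and 31.7, 26.6, 11 and 8.33 CPM in hindlimb webs 1 to 4. It was the one higher member past the test whose level went down toward web 4 in both limbs. It had a log2 fold change of 0.85 ± 0.112 (edgeR adjusted p = 0.0159), and the adjusted p was 0.0641, 0.135 and 0.157 without web 1, 2 or 3.

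GPNMB, a transmembrane glycoprotein of pigment cells and macrophages, gave 59.8, 62.6, 53.7 and 35.6 CPM across forelimb webs 1 to 4 against 27.6, 37.2, 21 and 24.4 CPM across hindlimb webs 1 to 4. The limbs overlapped only because forelimb web 4 lay just below hindlimb web 2. The fitted log2 fold change was -0.94 ± 0.12 (edgeR adjusted p = 0.0139), and the adjusted p was 0.0528, 0.0618 and 0.137 without web 1, 2 or 3. The list of macrophage and leukocyte genes, whose cells also make GPNMB, had a summed level of 96.3 to 252 CPM in the forelimb and 103 to 216 CPM in the hindlimb, and 5 of its 11 tested members had a negative log2 fold change. The part of either cell type in the GPNMB difference was not tested.

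RAB3IL1, which activates Rab GTPases of membrane traffic, had 77.3, 97.1, 105 and 171 CPM in forelimb webs 1 to 4 and 103, 116, 136 and 235 CPM in hindlimb webs 1 to 4, a log2 fold change of 0.38 ± 0.0567 (edgeR adjusted p = 0.0341). PSMG4, a chaperone of proteasome assembly, had 78.3, 73.6, 55.8 and 86.3 CPM against 106, 104, 89.1 and 102 CPM, a log2 fold change of 0.46 ± 0.0728 (edgeR adjusted p = 0.045). Hindlimb levels were higher at each position in both genes, without overlap in PSMG4. Both calls ended without web 1, 2 or 3 (adjusted p of 0.0811 to 0.346 for RAB3IL1 and 0.125 to 0.382 for PSMG4) and under scaling by library size alone. A row named 5_8S_rRNA, a ribosomal RNA with repeated copies in vertebrate genomes, had 6.92, 7.88, 7.87 and 8.69 CPM in the forelimb and 12.1, 23.7, 13.5 and 15.3 CPM in the hindlimb. Reads of repeated copies can be shared out in different ways, so its log2 fold change of 1.00 ± 0.149 (edgeR adjusted p = 0.0327) is uncertain. Its adjusted p was 0.0607, 0.0979 and 0.178 without web 1, 2 or 3.

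**Figure D2:**
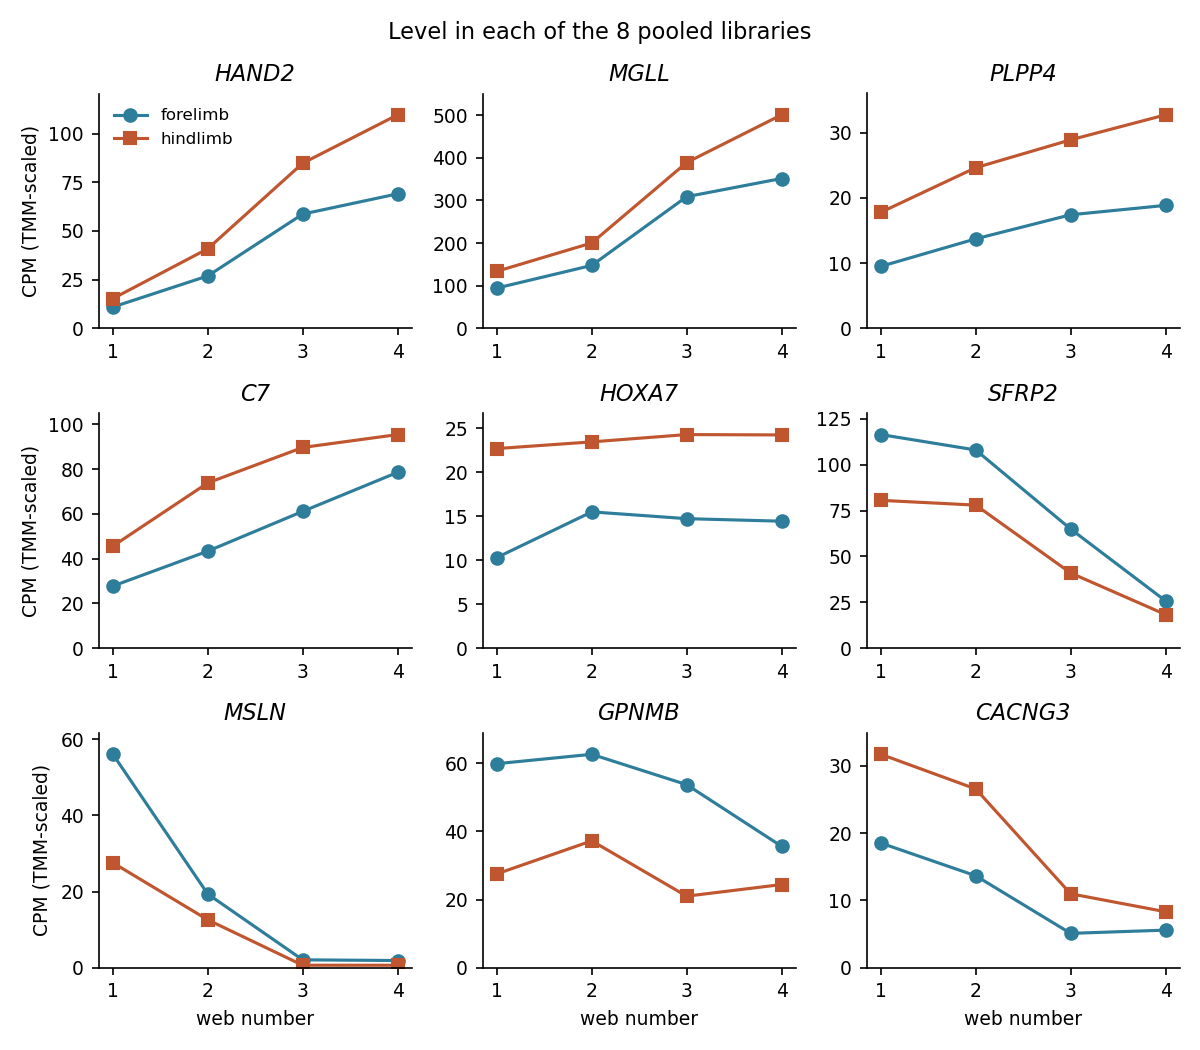
Level in TMM-scaled CPM (y axis, from 0, scaled separately in each panel) of 9 of the genes that passed, against web number (x axis), with 1 point for each pooled library. The hindlimb line runs above the forelimb line in HAND2, MGLL, PLPP4, C7, HOXA7 and CACNG3 and below it in SFRP2, MSLN and GPNMB, while most of these genes also change strongly from web 1 to web 4.

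Of the 7 genes past the test without a symbol, those with the lowest p in each direction are given. ENSPSIG00000008146 had 93.4, 97.2, 98.7 and 86.5 CPM in forelimb webs 1 to 4 and 7.77, 8.03, 5.52 and 7.28 CPM in hindlimb webs 1 to 4. The limbs stood farther apart than in any other gene that passed outside the identity factors, with a log2 fold change of -3.72 ± 0.11 (edgeR adjusted p = 1.1e-07). It passed in all 13 settings tried. ENSPSIG00000000349 was far lower toward web 4, with 188, 49.6, 2.98 and 0.768 CPM in the forelimb and 43.5, 16.9, 0.866 and 0.221 CPM in the hindlimb, and its log2 fold change was -1.82 ± 0.116 (edgeR adjusted p = 5.9e-05).

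In the other direction, ENSPSIG00000016976 had 184, 194, 181 and 155 CPM in forelimb webs 1 to 4 and 230.1, 303, 293 and 283 CPM in hindlimb webs 1 to 4, with a log2 fold change of 0.63 ± 0.081 (edgeR adjusted p = 0.0139). Its adjusted p was 0.0937 without web 2 and 0.183 without web 3. ENSPSIG00000019515 had 4.69, 7.3, 5.17 and 7.26 CPM in the forelimb and 18.7, 46.9, 24.3 and 11.5 CPM in the hindlimb, with a log2 fold change of 1.91 ± 0.263 (edgeR adjusted p = 0.0198). The limbs did not overlap in either gene, but in the second the difference in web 4 was far smaller than in the other webs. Its adjusted p was 0.0623, 0.114 and 0.226 without web 1, 2 or 3, and its call also ended under a robust prior.

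The calls rest on a fit with 3 residual degrees of freedom. Without the block 3 genes passed (0.0209% of tested genes), TBX4, TBX5 and ENSPSIG00000008146, while DESeq2 with the block called 146 (1.01%), 52 higher and 94 lower, among them all 24. Leaving out web 1, 2 or 3 with both its libraries gave 18, 9 and 7 genes past the threshold, of which 11, 7 and 6 were among the 24. Leaving out web 4 gave 67, of which 22 were among the 24.

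Members higher in the hindlimb tended to be genes that were also higher toward web 4 in both limbs. A slope of log2 CPM on web number was taken in each limb. Of the higher members 55.6% (680) went up toward web 4 in both limbs by this slope and 24.1% (294) went down. Of the lower members 27% (353) went up and 52.9% (690) went down. Over all tested genes the shares were 33.6% and 34.7%. A gene that changes much between webs can hardly have limbs without overlap. The shares of members without overlap therefore cannot be set against those of all tested genes. Of the 211 higher ones 39.8% went up, 17.5% went down and 90 genes had slopes of opposite sign in the limbs. Of the 190 lower ones 22.1% went up, 30.5% went down and 90 genes had opposite slopes. Among the 21 that passed beyond the identity factors, 7 of the 11 higher went up and 1 down, and 7 of the 10 lower went down and 1 up. The hindlimb minus forelimb difference and the mean slope correlated at 0.121 across all tested genes, which are not independent replicates, at 0.0714 without web 1 and at 0.0385 without web 4. The shares are a description with no test. Without web 1, 42.9% of higher members went up and 29.2% down, 31.7% of lower members went up and 40.4% down, and 27.9% and 28.2% of all tested genes went up and down. The smaller share of each direction was then no longer below that of all tested genes. Without web 4 the higher members had 45.8% up and 33.1% down, the lower members 36.4% up and 43.6% down, and all tested genes 34.8% and 35%, so the share of lower members going up was not below that of all tested genes either.

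Among genes with a symbol, a mean of at least 2 CPM and no overlap between the limbs there were 132 higher and 125 lower members, where 1.47% and 1.33% of all tested genes were without overlap in those directions. The 12 in each direction whose smallest web difference was largest included HOXA7, PSMG4, 5_8S_rRNA and ZFPM2, given above. Among the others higher in the hindlimb, GNMT, which methylates glycine, had 10.2, 9.99, 10.3 and 13.2 CPM in forelimb webs 1 to 4 and 15.6, 17.1, 13.5 and 18.4 CPM in hindlimb webs 1 to 4. Its hindlimb levels all lay above its forelimb levels. Its log2 fold change of 0.57 ± 0.106 did not pass in edgeR (adjusted p = 0.108) and passed in DESeq2 (adjusted p = 0.0039). ABT1, a factor of basal transcription, had 0.30 ± 0.0723 (edgeR adjusted p = 0.235; DESeq2 0.0488). NXNL2, B3GNT7, ERP27, EEF1AKMT4, REM1, TMEM255B and KCNK1 had log2 fold changes of 0.30 to 0.70 and edgeR adjusted p-values of 0.262 to 0.525.

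Of the lower genes in that set, KCNS2, a modulatory potassium channel subunit, had 9.83, 8.82, 8.46 and 10.1 CPM in forelimb webs 1 to 4 and 5.06, 5.37, 4.85 and 6.56 CPM in hindlimb webs 1 to 4. The limbs stood well apart, with a log2 fold change of -0.77 ± 0.132 (edgeR adjusted p = 0.0655; DESeq2 0.00113). KCNK5, a potassium leak channel, had -0.82 ± 0.171, NFASC, an adhesion protein of axons and glia, -0.95 ± 0.203, and the cadherin CDH20 -0.998 ± 0.223. Their edgeR adjusted p-values were 0.168, 0.19 and 0.204, and DESeq2 gave 0.015, 0.0192 and 0.00979. LRRTM2, MTUS2 and INVS, the last a protein of cilia, had -0.65, -0.79 and -0.33 and passed in neither tool. The remaining 4, SLC24A5, TYR, KIT and MLANA, belong to the pigment cell list.

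Pigment cell genes stood out as the list with the highest share of lower members. Of 16 tested members 11 (68.8%) were lower in the hindlimb in all 4 webs, where 9.08% of all tested genes were. In 5 of the 11 the limbs did not overlap, where 1.33% of all tested genes were lower without overlap. The median log2 fold change was -0.513, and 15 of the 16 were negative. GPNMB passed in edgeR, and 6 passed in DESeq2, GPNMB, TYR, KIT, DCT, SLC24A5 and SOX10. Of all 14386 tested genes edgeR called 11 (0.0765%) lower and DESeq2 called 94 lower. TYR, the enzyme that begins melanin synthesis, had 19.1, 22.2, 16.7 and 14.4 CPM in forelimb webs 1 to 4 and 5.63, 8.84, 9.38 and 11.8 CPM in hindlimb webs 1 to 4. Forelimb and hindlimb levels did not overlap, and the gap narrowed toward web 4. The fold change on the log2 scale was -1.05 ± 0.2 (edgeR adjusted p = 0.119; DESeq2 4.5e-05).

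KIT, a receptor tyrosine kinase of pigment cell precursors, had 23.6, 23.9, 24.9 and 25.2 CPM in the forelimb and 13.5, 19.7, 11.6 and 15.2 CPM in the hindlimb, with a log2 fold change of -0.73 ± 0.125 (edgeR adjusted p = 0.066). DCT, a later enzyme of melanin synthesis, had -0.92 ± 0.152 (edgeR adjusted p = 0.0586), SLC24A5, an ion exchanger of pigment granules, -0.57 ± 0.1 (0.0697), and SOX10, a neural crest factor shared by pigment and Schwann cells, -0.60 ± 0.107 (0.0791). All 4 forelimb levels of KIT lay above its hindlimb levels. MITF, the factor that directs pigment cell fate, did not follow, with 7.07, 7.98, 8.29 and 6.84 CPM against 6.81, 7.17, 8.15 and 8.57 CPM and a log2 fold change of 0.02 (edgeR adjusted p = 0.981). MLPH had -0.02 and EDNRB -0.23, and neither passed in either tool. The summed level of the list was 208 to 302 CPM in the forelimb and 164 to 218 CPM in the hindlimb, highest in webs 1 and 2 of both limbs. The count of lower members was 11 or 12 under the other scalings, where 9.02% to 12.4% of all tested genes were lower. With 1 web left out it was 11 to 13, where 14.2% to 18% of all tested genes were lower in the webs kept.

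Nerve and Schwann cell genes share SOX10 with that list. Of 12 tested members 3 (25%), SOX10, PRPH and S100B, were lower in all 4 webs and 1 (8.33%) was higher. Over all tested genes these shares were 9.08% and 8.51%. None passed in edgeR and SOX10 passed in DESeq2. The median log2 fold change was -0.115.

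**Figure D3:**
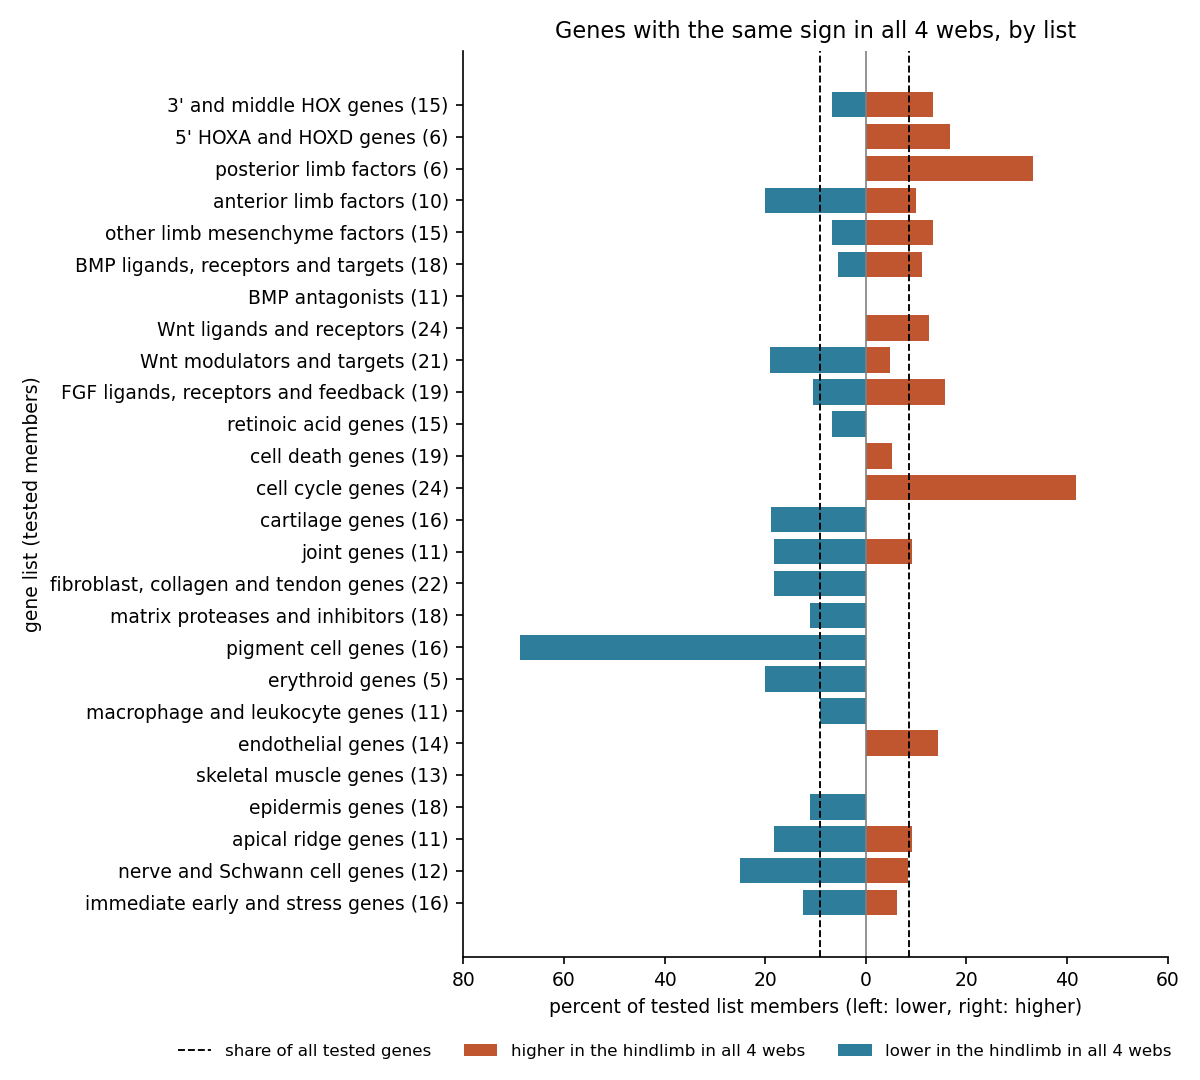
Percent of the tested members of each gene list other than the limb identity factors (x axis; number tested in brackets on the y axis) that were lower (left, blue) or higher (right, orange) in the hindlimb in all 4 webs. Dashed lines mark the shares over all tested genes, 9.08% lower and 8.51% higher; pigment cell genes (68.8% lower) and cell cycle genes (41.7% higher) reach farthest of the lists shown, and BMP antagonists and skeletal muscle genes have no bar.

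Cell cycle genes leaned the other way. Of 24 tested members 10 (41.7%) were higher in the hindlimb in all 4 webs, where 8.51% of all tested genes were, and none was lower in all 4. The differences were small, with a median log2 fold change of 0.139, and none passed in edgeR or DESeq2. CCNB1, a cyclin of mitosis, had 206, 224, 233 and 241 CPM in forelimb webs 1 to 4 and 271, 269.6, 270.1 and 248 CPM in hindlimb webs 1 to 4. There was no overlap between the limbs, although web 4 alone was nearly level, and the log2 fold change was 0.23 ± 0.0653 (edgeR adjusted p = 0.325). The mitotic kinase AURKB and the replication helicase subunit MCM7 each had 0.21 (edgeR adjusted p = 0.293 and 0.312). The list's median difference was 0.251, 0.204, 0.103 and 0.00963 in webs 1 to 4, with 24, 23, 19 and 13 of the 24 members higher, so web 4 showed almost none of it. Without web 4 the count of members higher in the other 3 webs was 18 (75%), where 16.6% of all tested genes were higher. Cell death genes showed no such lean: of 19 tested members only BAK1, which permeabilises mitochondria, was higher in all 4 webs (0.15 ± 0.0781, edgeR adjusted p = 0.619), and the list's median was 0.0188.

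Genes of fibroblasts, collagen fibrils and tendon were lower in the hindlimb in webs 1 to 3 but not in web 4. The list's median difference was -0.178, -0.457, -0.339 and 0.272 in webs 1 to 4, and 4, 2, 2 and 16 of its 22 tested members were higher in the hindlimb. The members lower in all 4 webs thus numbered 4 (18.2%), where 9.08% of all tested genes were lower. Without web 4 they numbered 17 (77.3%) in the other 3 webs, where 18% of all tested genes were lower. No member passed in edgeR and 1 did in DESeq2. COL6A3, a chain of collagen VI, had 73.4, 123, 110.3 and 87.7 CPM in forelimb webs 1 to 4 and 64.7, 71.8, 61.4 and 86 CPM in hindlimb webs 1 to 4. Its gap was wide in webs 2 and 3 and almost closed in web 4, and its log2 fold change was -0.46 ± 0.126 (edgeR adjusted p = 0.298; DESeq2 0.016). DCN, the collagen-binding proteoglycan decorin, had -0.17 ± 0.0615 (edgeR adjusted p = 0.443), and TNMD, a marker of tendon at low level, -1.504 ± 0.403 (edgeR adjusted p = 0.293). MMP2, a gelatinase and the most abundant gene of the protease list to keep its sign, had 3199, 4621, 5123 and 4709 CPM against 2904, 3654, 3847 and 4649 CPM, with -0.23 ± 0.0727 (edgeR adjusted p = 0.386).

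**Figure D4:**
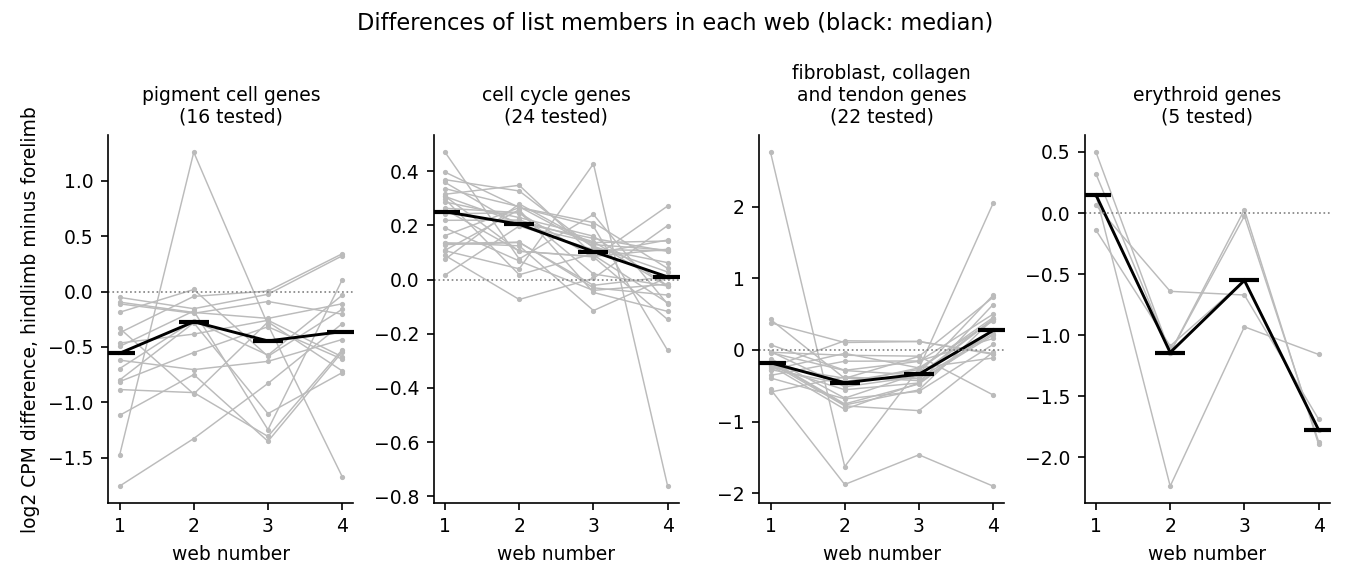
Hindlimb minus forelimb difference in log2 CPM (y axis, scaled separately in each panel) by web number (x axis) for the tested members of 4 gene lists, with 1 grey line per gene and the list's median in black. Pigment cell genes lie below 0 in every web by their median, cell cycle genes approach 0 in web 4, fibroblast genes turn positive in web 4, and erythroid genes are lowest in web 4.

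Cartilage and joint genes were mixed. Of 16 cartilage genes 3 (18.8%) were lower in all 4 webs and none higher. Over all tested genes 9.08% were lower and 8.51% higher. RUNX3, a factor of cartilage maturation and of sensory neurons, had 35.9, 35.4, 8.51 and 5.01 CPM in forelimb webs 1 to 4 and 34.4, 16.6, 6.08 and 2.11 CPM in hindlimb webs 1 to 4. The level dropped with position in both limbs, and the limb gap was small in web 1 and wide in webs 2 and 4. Its log2 fold change was -0.69 ± 0.175 (edgeR adjusted p = 0.275; DESeq2 0.00994). SOX5 and MATN4 had -0.33 and -0.20 and passed in neither tool. Of 11 joint genes 2 (18.2%) were lower in all 4 webs and 1 (9.09%) higher. DESeq2 called 4 of the 11 lower and 0 higher, where it called 94 of the 14386 tested genes lower. SFRP2 passed in edgeR, and OSR2, a zinc finger factor of joints, had -0.47 ± 0.0974 (edgeR adjusted p = 0.168, DESeq2 0.00139). OSR1, its relative, was higher with 0.17 ± 0.0661 (edgeR adjusted p = 0.479), although web 3 was level (a difference of 0.00877).

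Among patterning genes HAND2 and HOXA7 passed, and the share that kept one sign is to be read against 17.6% of all tested genes. Of 15 HOX genes from the 3' and middle parts of the clusters, HOXA7 and HOXA3 were higher in all 4 webs, HOXB6 was lower, and HOXA7 alone passed in either tool. HOXA3 had 27.5, 41.2, 46.2 and 36 CPM in forelimb webs 1 to 4 and 40.5, 47.5, 51.5 and 45.6 CPM in hindlimb webs 1 to 4, with a log2 fold change of 0.31 ± 0.0825 (edgeR adjusted p = 0.292). Of the 6 tested 5' HOXA and HOXD genes, which pattern the distal limb, HOXD10 was higher in all 4 webs with 0.24 ± 0.164 (edgeR adjusted p = 0.718), and none passed. Besides HAND2, 1 of the 6 posterior limb factors kept its sign, SALL3, with 0.65 ± 0.235 (edgeR adjusted p = 0.452). Among the anterior factors IRX5 and MSX1 were lower in all 4 webs with -0.24 ± 0.0763 and -0.11 ± 0.0608, neither past the test.

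SHOX, a factor of limb bone growth in human, had 2.96, 5.57, 8.04 and 10.2 CPM in forelimb webs 1 to 4 and 4.84, 6.78, 11 and 27.1 CPM in hindlimb webs 1 to 4. It climbed with position in both limbs and was set apart most in web 4. It had a log2 fold change of 0.72 ± 0.179 (edgeR adjusted p = 0.262; DESeq2 0.026). ISL1, which acts upstream of the hindlimb bud in mouse, was higher in all 4 webs by 0.16 ± 0.129 (edgeR adjusted p = 0.77). Its web 3 was nearly level (a difference of 0.0115). EN1, a factor of ventral ectoderm, was lower by a log2 fold change of -0.10 ± 0.0782.

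Among signalling genes SFRP2 was the one that passed in edgeR. Of 18 BMP ligands, receptors and targets, the ligand BMP7 and the target ID3 were higher in all 4 webs (11.1%) and the target ID4 lower (5.56%). Over all tested genes these shares were 8.51% and 9.08%. BMP7 had 66.9, 113, 141 and 198 CPM in forelimb webs 1 to 4 and 92.3, 129, 164 and 214 CPM in hindlimb webs 1 to 4, with a log2 fold change of 0.25 ± 0.066 (edgeR adjusted p = 0.293). Its gap was widest in web 1. ID3 and ID4 had 0.18 ± 0.0579 and -0.24 ± 0.0681, and none of the 11 BMP antagonists kept its sign. FSTL1, the most abundant antagonist, had differences of 0.136, -0.0588, 0.0139 and 0.293 in webs 1 to 4.

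Of 24 Wnt ligands and receptors 3 (12.5%) were higher in all 4 webs, where 8.51% of all tested genes were, and none passed in edgeR. These were the ligands WNT16 and WNT6 and the receptor FZD10, with log2 fold changes of 1.13 ± 0.36, 0.35 ± 0.134 and 0.16 ± 0.0982. FZD10 was level in web 4 (a difference of 0.00793). The list as a whole did not lean higher: 11 members had a positive and 13 a negative log2 fold change, with a median of -0.0175. DESeq2 called 1 member, which was lower. Of 21 Wnt modulators and targets 4 (19%) were lower in all 4 webs and 1 (4.76%) was higher. Over all tested genes these shares were 9.08% and 8.51%. This list's median log2 fold change was -0.0435, and 11, 3, 5 and 11 of its members were higher in webs 1 to 4. Among the 4 lower members were SFRP2, the Wnt-responsive factor LEF1 and the agonist RSPO1. LEF1 had 161, 165, 169 and 145 CPM in forelimb webs 1 to 4 and 135, 136, 127 and 138 CPM in hindlimb webs 1 to 4. The limbs did not overlap, with a log2 fold change of -0.26 ± 0.0643 (edgeR adjusted p = 0.262; DESeq2 0.0362). RSPO1 had -0.61 ± 0.16 (edgeR adjusted p = 0.292).

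In the FGF list of 19 tested genes, 3 (15.8%) were higher in all 4 webs and 2 (10.5%) lower. Over all tested genes these shares were 8.51% and 9.08%. The receptor FGFR3 had 78.6, 52.3, 36.7 and 34.7 CPM in forelimb webs 1 to 4 and 49.1, 37.2, 34.5 and 29.2 CPM in hindlimb webs 1 to 4, with a log2 fold change of -0.38 ± 0.097 (edgeR adjusted p = 0.275; DESeq2 0.0348). Its gap was wider in webs 1 and 2 than in webs 3 and 4. The feedback inhibitor SPRY2 had -0.29 ± 0.0784 and the target ETV4 0.26 ± 0.0762 (edgeR adjusted p = 0.293 and 0.345). Of 15 retinoic acid genes only the synthesis enzyme ALDH1A2 kept its sign, with -0.38 ± 0.144 (edgeR adjusted p = 0.472).

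The differences of blood and muscle genes varied between webs. Of 5 erythroid genes only HBZ, an embryonic globin, was lower in all 4 webs, with 1430.0, 1849, 1239 and 2252 CPM in forelimb webs 1 to 4 and 1298, 869, 845 and 658 CPM in hindlimb webs 1 to 4. The gap was small in web 1 and widest in web 4, and the log2 fold change was -0.89 ± 0.203 (edgeR adjusted p = 0.205). The list's median difference was 0.148, -1.14, -0.552 and -1.78 in webs 1 to 4, and without web 1 the count lower in the other 3 webs was 4 of 5, where 14.2% of all tested genes were. The summed level of the list, nearly all of it HBZ, was 1280 to 2330 CPM in the forelimb and 680 to 1350 CPM in the hindlimb. Of the 16 genes listed only these 5 were tested. None of 13 skeletal muscle genes kept one sign: 12, 8, 10 and 0 of them were higher in the hindlimb in webs 1 to 4. ACTA1, skeletal actin and the most abundant of them, had 67.1, 45.4, 22.9 and 65.2 CPM in forelimb webs 1 to 4 and 130.2, 53.5, 44 and 25.7 CPM in hindlimb webs 1 to 4. The hindlimb was higher in webs 1 to 3 and lower in web 4. The fitted log2 fold change was 0.23 ± 0.306 (edgeR adjusted p = 0.881), and without web 4 it was 0.72 (edgeR adjusted p = 0.0435). Muscle summed to 219 CPM in forelimb web 4 and 81.3 CPM in hindlimb web 4, the web in which the cell cycle and fibroblast lists departed from the others. The part of tissue composition in those differences was not tested.

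Among the epidermis genes KRT15 was lower in all 4 webs. It had 2327, 1232, 485 and 401 CPM in forelimb webs 1 to 4 and 1559, 1005, 425 and 371 CPM in hindlimb webs 1 to 4, with a log2 fold change of -0.29 ± 0.0768 (edgeR adjusted p = 0.292; DESeq2 0.0119). The gap was largest in web 1. The counts that follow are to be read against 8.51% of all tested genes higher and 9.08% lower in all 4 webs. Of 14 endothelial genes EGFL7 and TEK were higher in all 4 webs, with 0.35 ± 0.115 and 0.40 ± 0.146, and none passed. Of 11 apical ridge genes RSPO2 was higher, with 0.26 ± 0.0932, and EN1 and DLX6 were lower, with -0.10 and -0.10. LAPTM5, a lysosomal protein of leukocytes, was the one macrophage gene lower in all 4 webs, with -0.17 ± 0.121. Its web 2 was level (a difference of -0.00076), and with RLE size factors in place of TMM no macrophage gene was lower in all 4 webs. Of 16 immediate early and stress genes FOSL2 and ATF3 were lower and GADD45A was higher, with -0.43 ± 0.103, -0.11 ± 0.09 and 0.25 ± 0.141. FOSL2 passed in DESeq2 (adjusted p = 0.0288) but not in edgeR (0.232), and ATF3 was level in web 2 (a difference of -0.00629).

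Whether the limb difference itself changed from web 1 to web 4 was tested by the product of limb and web number. No gene passed in edgeR (0% of tested genes), 558 (3.88%) had an unadjusted p under 0.05, and DESeq2 called 1. The 2 genes with the lowest p among those with a symbol were of muscle. KLHL40, a stabiliser of thin filaments, had 1.56, 2.15, 1.02 and 2.8 CPM in forelimb webs 1 to 4 and 6.76, 1.87, 0.722 and 0.588 CPM in hindlimb webs 1 to 4. TNNT1, slow skeletal troponin T, had 11.6, 11.6, 8.29 and 20.1 CPM in the forelimb and 45.7, 12.3, 13.1 and 7.63 CPM in the hindlimb. In both genes hindlimb web 1 was the highest library and hindlimb web 4 the lowest.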

How the data were processed

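RNA from 8 pooled libraries of embryonic webs was sequenced as paired-end Illumina reads from NEBNext Ultra libraries, per the labels' protocols. The submitters' processing notes name HISAT2 2.2.1 and StringTie 2.1.7. The build and annotation are not given in the sources used here. Neither coordinates nor sequences were used. The authors deposited unnormalised counts per gene and TPM per gene with symbols. The counts were whole numbers with a different total in each library, and of 20472 counts from 1 to 40, 35.5% were multiples of 4, so whether each count stands for 1 read pair is uncertain, and intervals for counting error are not given. Precision is lowest for genes near the filter. Symbols were joined by gene identifier; 3871 tested genes had none.

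The analysis used edgeR 4.0.16 in R 4.3.3: filterByExpr by limb (minimum count 10, minimum total 15), TMM factors of 0.973 to 1.02, and a quasi-likelihood test of limb with web number as a factor, adjusted by Benjamini-Hochberg over all tested genes at 0.05. Each standard error is the fitted change over the square root of its F statistic. Web differences are log2 CPM with a prior count of 2. The product of limb and numeric web number was fitted with 4 residual degrees of freedom. DESeq2 1.42.0, limma 3.58.1 (voom, and log2(TPM + 1) of the deposited TPM), other scalings and filters, and each web left out were alternatives. The edgeR fits were also run on simulated counts, drawn independently for each library from the fitted means. The shared animals of the webs were not part of that simulation, and its outcome is not given here.

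Same-numbered libraries share a position and, per the series' design text, the same animals, so web number was taken to pair them. The correlation of their deviations from the limb mean was 0.498, 0.189, 0.242 and 0.327 in webs 1 to 4. Neighbouring webs reached 0.184 (forelimb 2, hindlimb 1) and 0.237 (forelimb 3, hindlimb 4).

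The members and 27 gene lists were chosen with earlier results of these data known. Genes were named if they passed the blocked test with a symbol, with the 2 of lowest p in each direction of those without one; if they were among the 12 per direction with a symbol, a mean of at least 2 CPM, no overlap and the largest smallest difference; if they were among up to 3 same-sign members of a list by p, or its most abundant member; or if they had the 2 lowest interaction p-values. Other genes of a list are named for comparison. A few genes that this rule selects are not reported here.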

Additional observations from a re-analysis of the deposited data

Results flagged for a closer look

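Of 192 groups of 4 libraries checked among the named genes, 5 had a library farther from the others than Dixon's 95% critical value allows. That value is made for 4 independent replicates, whereas each group here was 4 web positions of the same animals. Many of the genes also changed with position, so the number that chance would set apart is not known. TBX4 stood at 129 CPM in hindlimb web 4, against 159 in each of the other hindlimb webs. GNMT stood at 13.2 CPM in forelimb web 4, against 9.99 to 10.3 in the others. CCNB1 stood at 248 CPM in hindlimb web 4, against 270 to 271. MATN4 stood at 17.7 CPM in hindlimb web 4, against 23.5 to 24.7. TNNT1 stood at 45.7 CPM in hindlimb web 1, against 7.63 to 13.1.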

How the results depend on the processing

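The limb test without the replicate block called 3 genes in place of 24, so the pairing of webs decides most calls. DESeq2 with the block called 146, including all 24, and limma on log2(TPM + 1) called 7. With 1 web left out the count was 7 to 67. The other settings gave 21 to 33 genes. Genes with the same sign in all 4 webs, identity factors included, numbered 2530, and the total was 2148 to 2552 under other scalings, filters and prior counts. The genes behind these totals were not all the same. Of the 2530, 1796 were kept on log2(TPM + 1) and 2320 under scaling by library size alone. On log2(TPM + 1) the split moved from 1224 higher and 1306 lower to 753 and 1779, and the median difference of all tested genes was -0.0357. Requiring each difference to reach 0.1 left 798 genes, and 3 webs in place of 4 gave 3959 to 4978, a count that must be larger since fewer signs have to match. The limb by web product gave 0 genes in edgeR, 1 in DESeq2 (ENSPSIG00000014192), 1 with the replicate block (ND4L) and 0 to 2 with 1 web left out, the 2 being these genes without web 4. ND4L stood at 0.0361 to 0.0368 CPM in 4 libraries and at 51.1 to 116 CPM in the other 4. The direction of ACTA1 (-0.0408 to 0.716 with 1 web left out), KLHL40 (-0.95 to 0.508 with 1 web left out, 0.401 without the block and 0.427 in limma-voom) and TNNT1 (-0.205 to 0.922 with 1 web left out) was not stable; all other named genes kept theirs in every setting that tested them, and the cause was not tested. Over 96 named genes, 83 alternative values lost a call and 27 gained one. Same-sign counts, list shares and slope shares without 1 web, and list and slope values under other scalings, were added after seeing the data.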
